A study of Homo sapiens with 8 samples.

Results

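The genes of respiratory complex I were examined in DU145 cells, a human prostate cancer line, given FGF19, TNFα, both or neither. Members were the genes whose platform symbol began with NDUFA, NDUFB, NDUFC, NDUFS, NDUFV or NDUFAF, taken from probesets with 1 symbol. Pseudogenes were left out, and each gene was represented by its brightest probeset. This gave 41 genes of the 18417 named on the array, of which 34 encode subunits and 7 encode assembly factors. Among the subunit genes described here, 6 encode core subunits, those that carry the chemistry of the enzyme.

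There were 8 Affymetrix Human Gene 1.0 ST arrays in 4 groups of 2, which the sample labels call biological replicates. Cells in the FGF19 + TNFα group received, according to the labels, 50 ng/ml FGF19 with 100 µg/ml heparin for 100 min, with 50 ng/ml TNFα present for the last 90 min. The FGF19 group received the same FGF19 and heparin for 100 min without TNFα, the TNFα group received 50 ng/ml TNFα for 90 min, and the Mock group was left untreated. All groups had been moved to serum-free medium the day before. Heparin was given wherever FGF19 was given, so the effects of FGF19 and heparin cannot be told apart, and the heparin and TNFα doses in the paper's methods differ from those in the labels. The receptor tyrosine kinase FGFR4 binds FGF19, and NFκB is the main pathway switched on by the cytokine TNFα.

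Complex I, or NADH dehydrogenase, is the entry point of the mitochondrial respiratory chain. Its peripheral arm takes electrons from NADH in the N module and passes them along iron-sulfur clusters to ubiquinone in the Q module, while the membrane arm pumps protons across the inner membrane. The proton-pumping subunits are encoded by mitochondrial DNA and were not analysed here, and the nuclear-encoded subunits are put together with the help of assembly factors that are absent from the finished enzyme.

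The values are linear PLIER signals in arbitrary units, and differences are on the log2 scale. Groups were compared with limma fitted to all 33297 probesets, with adjustment by the method of Benjamini and Hochberg, and genes are described as called, higher or lower, where the adjusted p was under 0.05. Array medians lay between 99.5 and 106.6. Over all probesets, arrays of 1 group correlated at r = 0.967 to 0.980, arrays that differed in TNFα only at 0.962 to 0.981, and arrays that differed in FGF19 at 0.933 to 0.959. Over the 41 complex I genes these ranges were 0.985 to 0.995, 0.985 to 0.994 and 0.841 to 0.912. The epithelial markers KRT8, KRT18, EPCAM and CDH1 were well above the array medians in all 8 arrays, and PTPRC, CD3E, PECAM1, DCN, COL1A2 and KLK3, which mark other cell types or androgen receptor activity, were below 76 in each. Among these markers the keratin gene KRT8 was 2.07-fold lower with FGF19 (1088 and 1372, against 2590 and 2467 in Mock, adjusted p = 0.00385) and 1.97-fold lower in the presence of TNFα, where CDH1 was called 1.26-fold higher (adjusted p = 0.0355), and CD3E was called higher (1.48-fold, adjusted p = 0.0151) at signals of 62.9 and 59.2 with FGF19, against 41.6 and 40.9 in Mock. Their part in the complex I results was not tested. In total RNA of this kind, less of a transcript per cell cannot be told apart from fewer cells that carry it.

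Complex I genes are classical targets of the transcription factors NRF1 and GABP, an ETS family protein. A search of RefSeq promoters on GRCh38.p14, which span 250 bases before to 50 bases after the annotated start, was therefore made for the NRF1 motif, a palindrome that reads the same on both strands and is the run in capitals in the sequences printed here, and for the ETS motif CCGGAAGT on either strand. Of the 41 genes, 38 had a promoter in the table. The NRF1 motif was found in 3 of these 38 (7.89%), against 1.24% of all 35116 promoters and 1.5% of the 22199 promoters of coding genes. The ETS motif was found in 2 of 38 (5.26%), NDUFS1 and NDUFA13, against 4.14% of all promoters and 5.34% of those of coding genes. The 3 promoters that held the NRF1 motif are shown with 2 that did not, that of NDUFV1, a core subunit that fell with FGF19, and that of NDUFB10, a subunit that rose. Each runs from 170 bases before to 10 bases after the start, on the strand of the gene, with the NRF1 motif in capitals. The windows are chr9:122159770-122159949 on the minus strand for NDUFA8 and, on the plus strand, chr3:120596166-120596345 for NDUFB4, chr20:13784858-13785037 for NDUFAF5, chr11:67606766-67606945 for NDUFV1 and chr16:1959368-1959547 for NDUFB10.
NDUFA8: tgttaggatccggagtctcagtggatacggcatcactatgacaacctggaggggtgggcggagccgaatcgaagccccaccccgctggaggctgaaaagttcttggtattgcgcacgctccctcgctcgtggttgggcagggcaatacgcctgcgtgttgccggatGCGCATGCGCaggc
NDUFB4: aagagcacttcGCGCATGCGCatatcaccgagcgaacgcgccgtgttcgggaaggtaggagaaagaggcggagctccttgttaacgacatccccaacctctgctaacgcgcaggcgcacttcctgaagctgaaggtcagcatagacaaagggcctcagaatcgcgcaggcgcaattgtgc
NDUFAF5: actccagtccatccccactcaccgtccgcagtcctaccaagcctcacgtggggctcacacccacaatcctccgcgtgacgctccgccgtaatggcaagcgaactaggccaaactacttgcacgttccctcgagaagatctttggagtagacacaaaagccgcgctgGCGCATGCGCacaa
NDUFV1: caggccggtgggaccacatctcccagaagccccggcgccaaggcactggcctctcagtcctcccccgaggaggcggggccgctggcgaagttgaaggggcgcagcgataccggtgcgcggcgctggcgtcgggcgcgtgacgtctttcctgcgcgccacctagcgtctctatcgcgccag
NDUFB10: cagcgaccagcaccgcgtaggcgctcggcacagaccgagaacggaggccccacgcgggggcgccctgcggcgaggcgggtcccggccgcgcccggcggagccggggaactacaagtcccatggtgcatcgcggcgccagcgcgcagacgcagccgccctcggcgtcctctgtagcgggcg
The motif began 4 bases before the start in both NDUFA8 and NDUFAF5, and 159 bases before it in NDUFB4. NDUFA8 and NDUFB4 were lower with FGF19, as described below. NDUFAF5 was not called by limma (log2 difference −0.31, adjusted p = 0.0623), but was called lower without the dimmest 20 percent of probesets (0.0424). Thus 2 of the 22 genes that were lower and 1 of the 16 others with a promoter held the motif.

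Complex I genes that changed with FGF19 relative to Mock were lower, with the exception of NDUFB10 and NDUFAF7. Of the 41 genes, 22 were lower (53.7%), 2 were higher (4.88%) and 17 were not called. Among all probesets 14.1% were lower and 18.2% higher, and among the 16281 probesets at least as bright as the dimmest member 24.6% were lower and 24.5% higher. The median log2 difference of the 41 genes was −0.46, beside 0.08 over all probesets and −0.02 over those bright probesets, and 37 of the 41 lay below 0. In 34 genes both FGF19 arrays lay below both Mock arrays, as they did in 27.8% of all probesets and 40.9% of the bright ones, in 3 they lay above, and in 4 the groups overlapped. At 2-fold or more, 6 of the 41 genes were called lower, beside 2.8% of all probesets and 4.93% of the bright ones. All 41 genes are drawn by array in the heat map that follows.

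**Figure D1:**
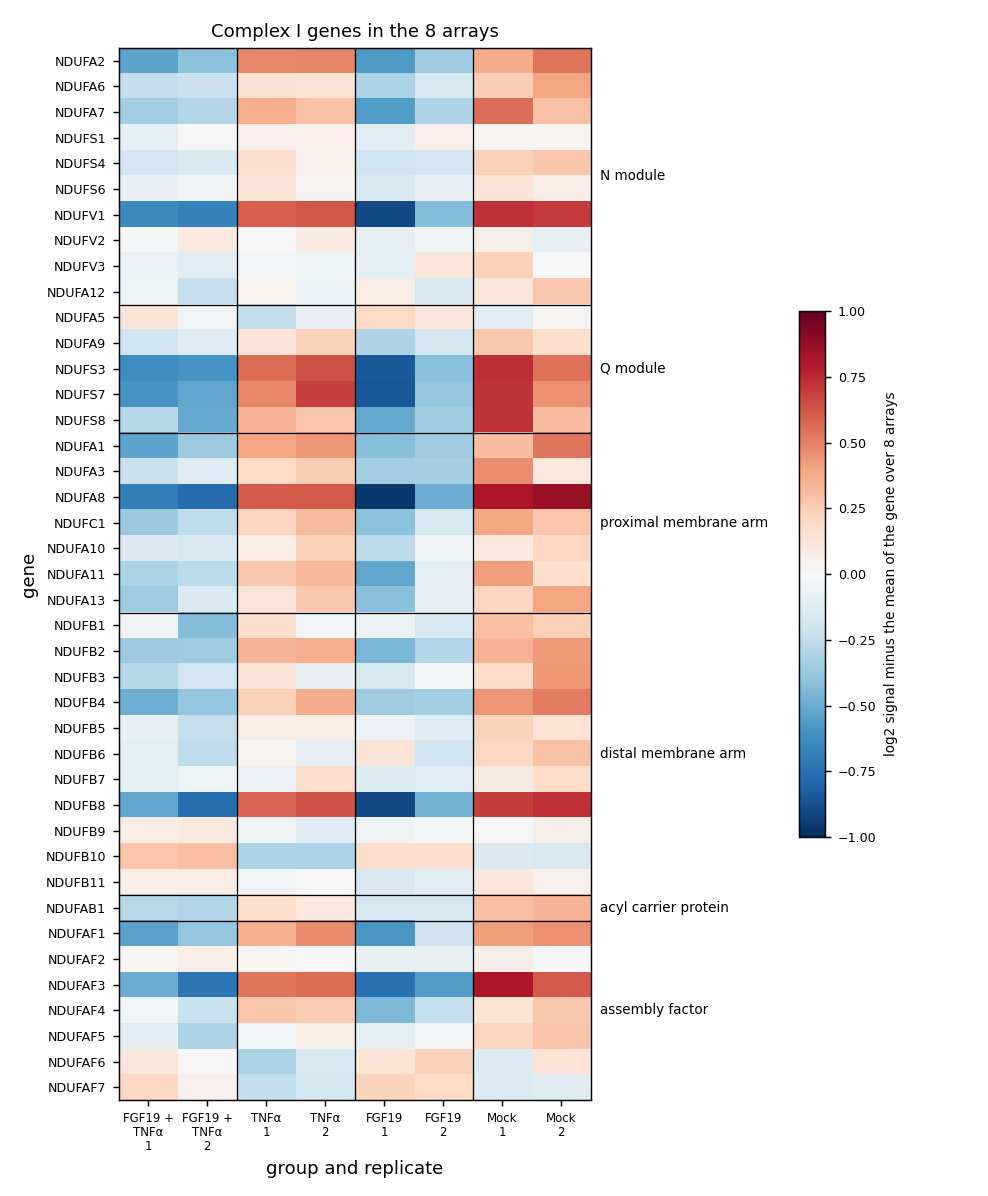
Log2 signal of the 41 complex I genes (rows, by role) in the 8 arrays (columns, by group and replicate), each gene relative to its mean over the 8 arrays, with blue for lower and red for higher. The 4 arrays with FGF19 are blue in most rows, the 4 without are red, and the rows of NDUFB10 and NDUFAF7 run the other way.

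FGF19 was also compared where TNFα was present. Relative to TNFα alone, 19 of the 41 genes were lower with FGF19 + TNFα (46.3%) and 2 were higher (4.88%), beside 12.9% and 19.4% of all probesets and 22.2% and 23.8% of the bright ones. The median log2 difference was −0.34, beside 0.10 over all probesets, and 34 genes lay below 0. Both FGF19 + TNFα arrays lay below both TNFα arrays in 30 genes, against 27.6% of all probesets and 40.7% of the bright ones. In 6 genes they lay above, and in 5 the groups overlapped. Again 6 genes were at least 2-fold lower, beside 2.54% of all probesets and 4.11% of the bright ones. These arrays are other arrays than those of FGF19 and Mock, and all 19 genes were also lower with FGF19 alone. The remaining 3 of the 22, NDUFS4 (adjusted p = 0.0515), NDUFA3 (adjusted p = 0.0611) and NDUFA13 (adjusted p = 0.065), did not pass by limma in the presence of TNFα. This count of 19 was 12 without either TNFα array and 11 without FGF19 + TNFα replicate 2. The differences in both settings are drawn for each gene in the plot of log2 differences by role.

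**Figure D2:**
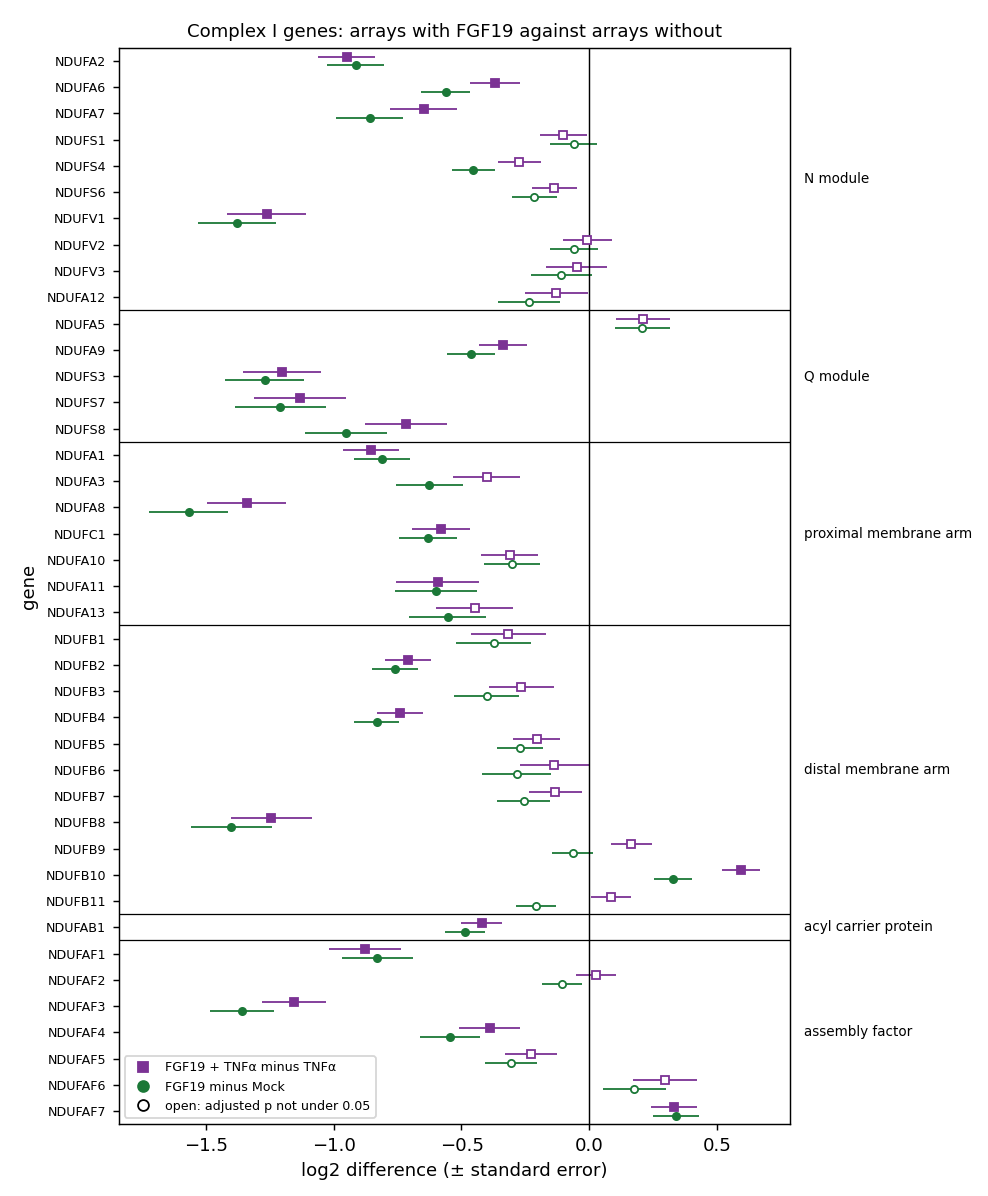
Log2 difference with its standard error for each of the 41 genes (rows, by role), for FGF19 + TNFα minus TNFα (squares) and FGF19 minus Mock (circles), with filled symbols for an adjusted p under 0.05 and n = 2 arrays per group. Filled symbols lie left of 0 except for NDUFB10 and NDUFAF7, and the values span −1.57 to 0.34 for FGF19 minus Mock and −1.34 to 0.59 for FGF19 + TNFα minus TNFα.

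In the N module, 5 of 10 genes were lower with FGF19 relative to Mock (50%, beside 24.6% of the bright probesets) and 0 were higher. The median log2 difference was −0.35 (10 of 10 below 0). With TNFα present, 4 of the 10 were lower (40%), beside 22.2% of the bright probesets. All p-values in this and the following paragraphs are from limma. NDUFV1, the core subunit that binds NADH and FMN, had signals of 438 and 606 with FGF19, against 1355 and 1327 in Mock. With FGF19 + TNFα its signals were 527 and 511, against 1235 and 1258 with TNFα. The 4 arrays with FGF19 thus lay well below the 4 without. The fold changes were 2.60 lower without TNFα (log2 difference −1.38, SE 0.15, adjusted p = 0.00298) and 2.40 lower with it (−1.26, adjusted p = 0.00383). NDUFA2, a supernumerary subunit with a thioredoxin-like fold, had signals of 192 and 223 with FGF19 and of 369 and 413 in Mock. It was 1.88-fold lower (adjusted p = 0.00334), and 1.93-fold lower in the presence of TNFα. NDUFA7, another supernumerary subunit, was 1.81-fold lower with signals of 302 and 358 with FGF19, against 655 and 543 in Mock, and NDUFA6 was 1.48-fold lower. NDUFA7 was also lower in the presence of TNFα (1.57-fold, adjusted p = 0.0139), but this call was lost when any of the 4 arrays compared was left out (adjusted p = 0.0564 to 0.0685).

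The other core subunits of the N module did not follow NDUFV1. NDUFS1, which carries several of the iron-sulfur clusters of the electron path, had signals of 1386 and 1554 with FGF19, against 1530 and 1532 in Mock. With FGF19 + TNFα they were 1406 and 1500, against 1559 and 1559 with TNFα. The FGF19 and Mock arrays of NDUFS1 overlapped, and the log2 difference was −0.06 (95% confidence interval −0.29 to 0.16, adjusted p = 0.655). NDUFV2, which holds an iron-sulfur cluster beside NDUFV1, had signals of 801 and 832 with FGF19, against 892 and 811 in Mock. Its log2 difference was −0.06 (−0.29 to 0.17), and −0.01 (−0.24 to 0.22) in the presence of TNFα. A second NDUFV2 probeset gave −0.06 and 0.01. The interval of NDUFV1 with FGF19, −1.75 to −1.01, lay below those of both NDUFS1 and NDUFV2. The supernumerary subunit genes NDUFS6, NDUFV3 and NDUFA12 were not called, with log2 differences of −0.21, −0.11 and −0.24.

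NDUFS4, a subunit gene whose mutations cause inherited complex I deficiency, differed between its probesets. At the brighter probeset its signals were 216 and 216 with FGF19, against 291 and 300 in Mock, and it was 1.37-fold lower (adjusted p = 0.00984). The dimmer probeset had 71.6 and 69.0 with FGF19, against 43.8 and 38.7 in Mock (log2 difference 0.77, adjusted p = 0.0995). At that probeset the signals were 55.7 and 93.9 with FGF19 + TNFα, against 45.2 and 28.5 with TNFα, and it was called higher (log2 difference 1.01, SE 0.30, adjusted p = 0.0458). The direction for NDUFS4 is therefore that of 1 probeset only.

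In the Q module, 4 of the 5 genes described here were lower with FGF19 relative to Mock and 0 were higher. The share lower was 80%, beside 24.6% of the bright probesets. The median log2 difference of −0.95 was the lowest among the modules with more than 1 gene. With TNFα present, 4 of the 5 were again lower (80%), beside 22.2% of the bright probesets. NDUFS3, a core subunit of this module, had signals of 336 and 451 with FGF19, against 1004 and 878 in Mock, and of 391 and 400 with FGF19 + TNFα, against 888 and 934 with TNFα. It was 2.41-fold lower without TNFα (log2 difference −1.27, SE 0.15, adjusted p = 0.00327) and 2.30-fold lower with it. NDUFS7, which holds the cluster that hands electrons to ubiquinone, had signals of 60.1 and 82.7 with FGF19, against 179 and 149 in Mock. It was the dimmest member, and was 2.31-fold lower (adjusted p = 0.00505), and 2.19-fold lower in the presence of TNFα.

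NDUFS8, which carries a pair of iron-sulfur clusters, had signals of 241 and 268 with FGF19, against 568 and 427 in Mock. It was 1.94-fold lower (adjusted p = 0.00726). In the presence of TNFα it was 1.64-fold lower (adjusted p = 0.0194), a call that was lost without either TNFα array or FGF19 + TNFα replicate 2 (adjusted p = 0.0699 to 0.0986), or without moderation of the variances (0.0565). The fourth, NDUFA9, which resembles short-chain dehydrogenases, was 1.38-fold lower. NDUFA5 went the other way without passing the test, with signals of 1127 and 1062 with FGF19, against 907 and 987 in Mock (log2 difference 0.21, adjusted p = 0.191).

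**Figure D3:**
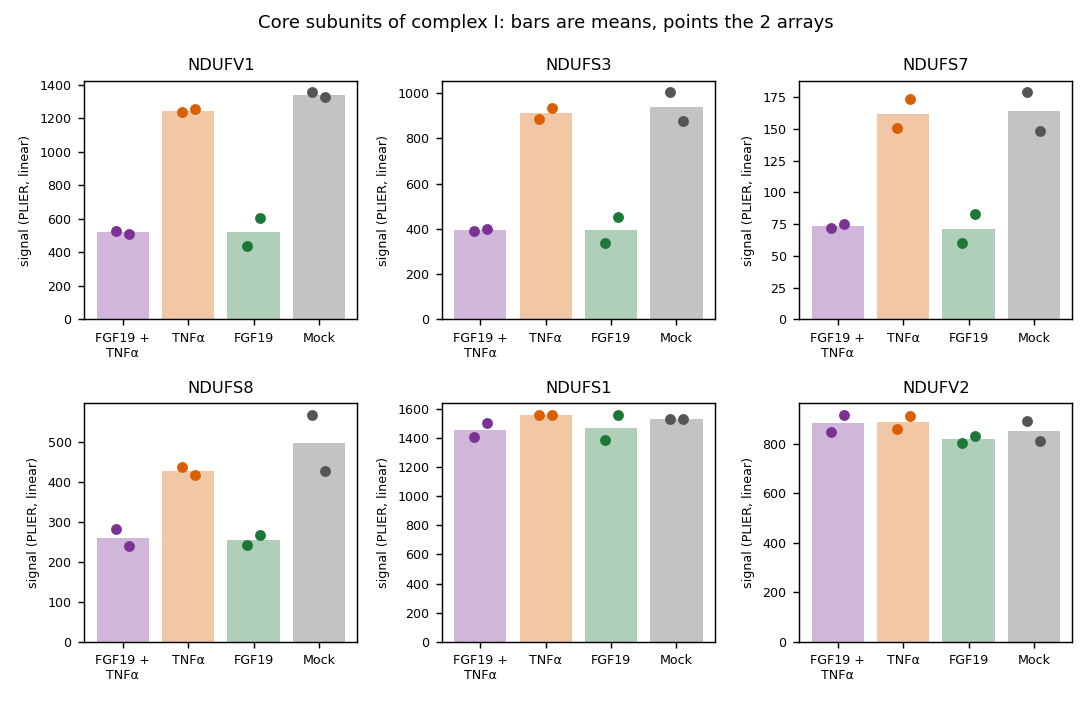
Signal (linear PLIER units) of 6 core subunits in FGF19 + TNFα, TNFα, FGF19 and Mock, with bars for the group means and points for the 2 arrays. NDUFV1, NDUFS3, NDUFS7 and NDUFS8 are lower in both groups given FGF19, while NDUFS1 lies between 1386 and 1559 and NDUFV2 between 801 and 916 in every array.

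The same signals were expressed as log2 ratios of 2 core subunits within each array, which restates the fold changes of the single genes and is given as a description. The ratio of NDUFV1 to NDUFV2 averaged −0.71 ± 0.19 in the 4 arrays with FGF19 and 0.57 ± 0.11 in the 4 without (SD, difference −1.29). The difference for NDUFS1 to NDUFV1 was 1.24. For NDUFS1 to NDUFV2 it was −0.05, and among NDUFV1, NDUFS3 and NDUFS7 it was −0.08 for NDUFV1 to NDUFS3, −0.15 for NDUFV1 to NDUFS7 and −0.07 for NDUFS3 to NDUFS7. NDUFS8 fell less than these, and the difference was −0.49 for NDUFV1 to NDUFS8, −0.40 for NDUFS3 to NDUFS8 and −0.34 for NDUFS7 to NDUFS8.

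In the proximal part of the membrane arm, 6 of 7 genes were lower with FGF19 relative to Mock (85.7%) and 0 were higher. Among the bright probesets 24.6% were lower. The median log2 difference of the 7 genes was −0.63. With TNFα present, 4 of the 7 were lower (57.1%), beside 22.2% of the bright probesets, and NDUFA3 and NDUFA13 were not among them. NDUFA8, which folds through disulfide bonds in the intermembrane space and whose promoter opens the set above, had signals of 219 and 304 with FGF19, against 754 and 777 in Mock. With FGF19 + TNFα they were 266 and 251, against 655 and 654 with TNFα. No array with FGF19 reached the level of any array without it. This was the largest fall among the 41 genes, 2.97-fold (log2 difference −1.57, SE 0.16, adjusted p = 0.00277), and 2.53-fold in the presence of TNFα (log2 difference −1.34, adjusted p = 0.00364). NDUFA8 is also in a gene list that the study drew from these arrays, so that its call is not independent evidence.

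NDUFA1, a small single-pass membrane subunit encoded on the X chromosome, had signals of 277 and 291 with FGF19, against 461 and 537 in Mock, and was 1.75-fold lower (1.81-fold with TNFα). NDUFC1, NDUFA3, NDUFA11 and NDUFA13, of which NDUFA13 is also known as GRIM-19, were 1.55, 1.54, 1.52 and 1.47-fold lower. The exception was NDUFA10, with signals of 393 and 457 with FGF19, against 504 and 542 in Mock. Its arrays did not overlap, but the log2 difference of −0.30 missed the threshold (adjusted p = 0.0863).

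In the distal part of the membrane arm 3 of 11 genes were lower (27.3%, beside 24.6% of the bright probesets) and 1 was higher (median log2 difference −0.28). With TNFα present the counts were again 3 and 1, beside 22.2% and 23.8% of the bright probesets. NDUFB8, a subunit whose protein is lost when complex I fails to assemble, had signals of 457 and 617 with FGF19, against 1385 and 1423 in Mock. With FGF19 + TNFα they were 596 and 509, against 1291 and 1320 with TNFα. It was 2.64-fold lower without TNFα (log2 difference −1.40, SE 0.16, adjusted p = 0.00303) and 2.37-fold lower with it. NDUFB4, whose promoter is printed above, had signals of 434 and 440 with FGF19, against 759 and 800 in Mock, and was 1.78-fold lower (adjusted p = 0.00287). A second NDUFB4 probeset holds identical values and was counted once. NDUFB2 was 1.69-fold lower.

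NDUFB10, a disulfide-bonded subunit of the same arm, was higher instead. Its signals were 365 and 363 with FGF19, against 291 and 289 in Mock, and 390 and 397 with FGF19 + TNFα, against 260 and 261 with TNFα. The arrays of each group lay close together, and none with FGF19 overlapped one without. NDUFB10 rose 1.26-fold without TNFα (log2 difference 0.33, SE 0.08, adjusted p = 0.0195) and 1.51-fold with it (log2 difference 0.59, adjusted p = 0.00405). The first of these calls was lost without FGF19 replicate 1 or without either Mock array (adjusted p = 0.0503 to 0.0948) and in a fit of only the FGF19 and Mock arrays (0.0926). The remaining 7 genes of this arm, NDUFB1, NDUFB3, NDUFB5, NDUFB6, NDUFB7, NDUFB9 and NDUFB11, were not called, with log2 differences of −0.40 to −0.06. NDUFAB1, the mitochondrial acyl carrier protein, which is placed in both arms, had signals of 363 and 362 with FGF19, against 501 and 514 in Mock, and was 1.40-fold lower (adjusted p = 0.00652).

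Set side by side, the core subunits described here were lower in 4 of 6 cases (median log2 difference −1.08) and supernumerary subunits in 15 of 28 (−0.46) with FGF19 relative to Mock. These shares were 66.7% and 53.6%, beside 24.6% of the bright probesets. In the presence of TNFα the counts were 4 of 6 (66.7%, median −0.93) and 12 of 28 (42.9%, −0.33), beside 22.2% of the bright probesets. Whether these shares differ was not tested.

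Of the 7 assembly factors, 3 were lower with FGF19 (42.9%), 1 was higher (14.3%) and 3 were not called. Among the bright probesets 24.6% were lower and 24.5% higher. The same counts of assembly factors were found in the presence of TNFα, where 22.2% of the bright probesets were lower and 23.8% higher. NDUFAF3, which acts early in assembly of the Q module, had signals of 182 and 207 with FGF19, against 534 and 466 in Mock. With FGF19 + TNFα they were 216 and 184, against 442 and 449 with TNFα. It was 2.57-fold lower without TNFα (log2 difference −1.36, SE 0.13, adjusted p = 0.00275) and 2.23-fold lower with it (adjusted p = 0.00352), so that its fall was among the 6 of at least 2-fold in both settings.

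NDUFAF4, the partner of NDUFAF3, had signals of 321 and 373 with FGF19, against 481 and 529 in Mock, and was 1.46-fold lower (adjusted p = 0.0162). This call was lost without FGF19 replicate 1 or either Mock array (adjusted p = 0.0522 to 0.092) and when only the FGF19 and Mock arrays were fitted (0.0525). In the presence of TNFα the adjusted p was 0.0483, and it was 0.0667 with the replicate number as a block, 0.0632 in a fit of only the groups compared, 0.0798 without moderation, 0.0675 to 0.202 without any 1 array of the FGF19 + TNFα or TNFα groups, and 0.0735 without either Mock array. NDUFAF1, a factor for assembly of the membrane arm, had signals of 386 and 499 with FGF19, against 770 and 790 in Mock, and was 1.78-fold lower, and 1.84-fold lower in the presence of TNFα.

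NDUFAF7, a mitochondrial methyltransferase, was higher. Its signals were 989 and 973 with FGF19, against 771 and 779 in Mock, and 978 and 872 with FGF19 + TNFα, against 720 and 748 with TNFα. The groups did not overlap, and it rose 1.27-fold (adjusted p = 0.0316) and 1.26-fold (adjusted p = 0.0348). Neither call held when any 1 array of the groups compared was left out (adjusted p = 0.0662 to 0.127 and 0.0593 to 0.153), the first was also lost without either TNFα array (0.0603), and the second without either Mock array (0.0659) or after quantile normalization (0.0517). Both were lost in a fit of only the groups compared (0.086 and 0.0788). NDUFAF2, NDUFAF5 and NDUFAF6 were not called, with log2 differences of −0.11, −0.31 and 0.18. For NDUFAF2, a second and dimmer probeset gave −0.44 (adjusted p = 0.0577). Among 13 assembly factors with other names, listed with earlier results known, 9 were lower with FGF19 (69.2%) and 0 higher (median −0.48). Of the bright probesets, 24.6% were lower and 24.5% higher. In the presence of TNFα, 8 of the 13 were lower (61.5%) and 1 was higher, beside 22.2% and 23.8% of the bright probesets. The higher gene was LYRM2 (1.37-fold, adjusted p = 0.029). The largest fall among the 13 with FGF19 relative to Mock was that of the oxidoreductase gene FOXRED1 (3.15-fold, adjusted p = 0.00276). Its signals were 105 and 142 with FGF19, against 373 and 396 in Mock.

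TNFα alone gave no call among the complex I genes. Relative to Mock, 0 of the 41 passed by limma and the smallest adjusted p was 0.419, beside 1.06% of all probesets called. An unadjusted p under 0.05 was reached by 0 of the 41, beside 4146 of the 33297 probesets. Log2 differences with TNFα ran between −0.29 and 0.06 (median −0.11, beside −0.04 over all probesets), with 35 of 41 below 0, and the 95% confidence intervals of the single genes reached no further than −0.62 and 0.42. A fit without moderation of the variances called 1 gene, NDUFB10 (log2 difference −0.16, adjusted p = 0.0352), which had signals of 260 and 261 with TNFα, against 291 and 289 in Mock, beside 0.58% of all probesets called in that fit.

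Adding TNFα to FGF19 likewise gave 0 calls by limma relative to FGF19 alone, beside 0.282% of all probesets called (median log2 difference 0.01). It gave no call without moderation of the variances. At an unadjusted p under 0.05 there was 1 gene, beside 2000 of the 33297 probesets. The interaction of FGF19 and TNFα was called for 0 genes by limma, and for 0 without moderation, with 0 of 33297 probesets called (0%). An unadjusted p under 0.05 was reached by 2 of the 41, beside 1715 of the 33297 probesets. The estimates ran between −0.05 and 0.30 (median 0.105, beside 0.029 over all probesets), with 6 of 41 below 0. The widest single-gene confidence intervals reached −0.55 and 0.79. Those 2 at an unadjusted p under 0.05 were NDUFB10 (interval 0.01 to 0.52) and NDUFB11 (0.02 to 0.57), and neither passed the adjustment. By the moderated F test over the 4 groups at an adjusted p under 0.015, 17 of the 41 genes differed, beside 20.9% of all probesets and 34.4% of the bright ones. For the alternatives that follow, the shares of all probesets are not given, so a general loss of calls cannot be told apart. The count of 17 was 6 without moderation of the variances. It was 3 and 1 without Mock replicate 1 or 2, and 8 or 9 without any 1 array of the FGF19 + TNFα or TNFα groups.

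The falls were not equally deep in the FGF19 arrays. FGF19 replicate 1 was below replicate 2 in 32 of the 41 genes and in 21 of the 22 that were called lower, where the median log2 difference between the replicates was −0.21. Over all probesets that difference was 0.00. The count of genes called lower ranged between 16 and 23 when any 1 of the 8 arrays was left out, and the median log2 difference between −0.49 and −0.42.

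Gene length moved with the difference in these data. The 22 genes that were lower had a median length of 9256.5 bases in the RefSeq annotation of GRCh38.p14, and the 17 not called one of 22854 bases. Across the 41 genes, log10 length and the log2 difference with FGF19 correlated at a Pearson r of 0.44 and a Spearman rho of 0.48, and across 10029 coding genes at least as bright as the dimmest member at 0.45 and 0.47. Genes are not independent replicates, and they share the same 4 arrays. Those coding genes were divided by length into 3 classes of 3343 genes each. The shortest class, up to 17734 bases, held 26 complex I genes, of which 19 were lower (73.1%), against 44.1% of the coding genes in it. In the middle class 2 of 10 complex I genes were lower (20%), against 26.8% of the coding genes, and in the longest class 1 of 5 (20%), against 8.82%. The part of gene length in the falls of complex I genes was not tested beyond this split.

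**Figure D4:**
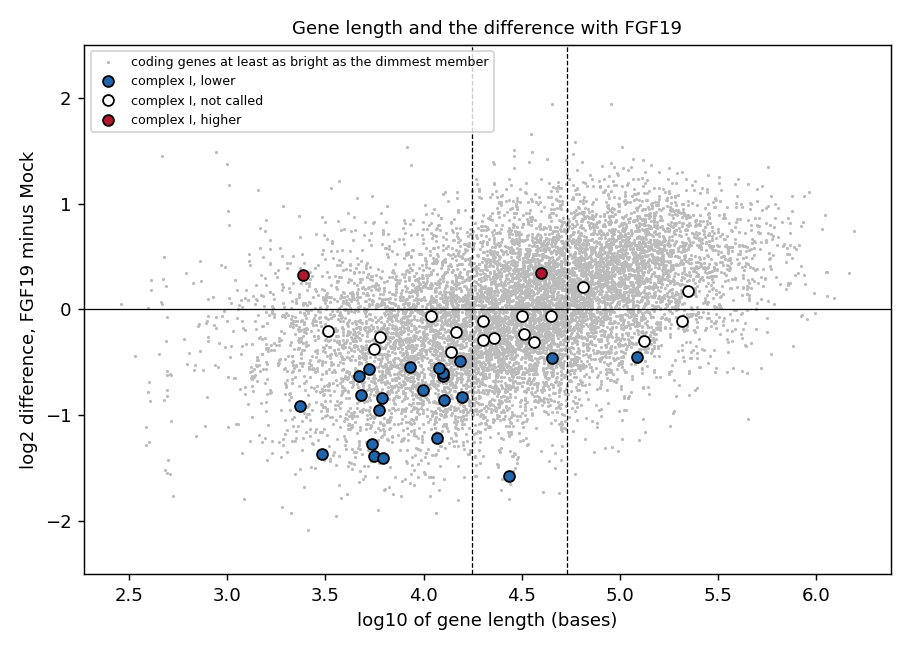
Log2 difference of FGF19 minus Mock (vertical axis) against log10 gene length in bases (horizontal axis) for 10029 coding genes (grey) and the 41 complex I genes (circles, by call), with dashed lines between the 3 length classes. The grey cloud slopes upward with length, and 19 of the 22 complex I genes that were lower lie in the shortest class.

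Other properties moved less with the difference. Over the 38 genes with a promoter, its GC content correlated with the log2 difference at 0.03 (Pearson) and 0.07 (Spearman), and mean signal at 0.16 and 0.23 over all 41. Of the 41 genes, 20 have at least 1 processed or other pseudogene under their own name in RefSeq, to which probes could also bind. Among these, 9 were lower with FGF19, against 13 of the 21 without one, beside 24.6% of the bright probesets. Whether these counts differ was not tested.

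The other respiratory complexes were set beside complex I. The lists of complexes II to V hold subunits and assembly factors together. Of their 62 measured genes, 32 were lower with FGF19 relative to Mock (51.6%) and 5 higher (8.06%). Among the bright probesets 24.6% were lower and 24.5% higher. The share lower and the median log2 difference of −0.47 were close to the 53.7% and −0.46 of complex I. In the presence of TNFα, 30 were lower (48.4%) and 5 higher (8.06%, median −0.36), beside 22.2% and 23.8% of the bright probesets. By complex, 3 of 6 genes of complex II (50%) and 8 of 14 of complex III (57.1%) were lower with FGF19 relative to Mock. So were 14 of 23 of complex IV (60.9%) and 7 of 19 of complex V (36.8%). In complex V 3 genes were higher (15.8%), and in complexes III and IV 1 each. In complex II the genes lower were the subunit genes SDHA, SDHC and SDHD. The assembly factor genes SDHAF2, SDHAF3 and SDHAF4 were not called. COXFA4, formerly NDUFA4 and now placed in complex IV, had signals of 1432 and 1429 with FGF19, against 1964 and 1884 in Mock, and was 1.35-fold lower (adjusted p = 0.012). Its relative COXFA4L2, formerly NDUFA4L2, was not called (log2 difference −0.19). No difference between complex I and the other complexes was tested.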

How the data were processed

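RNA of DU145 cells was measured on 8 arrays in 4 groups of 2. The authors deposited linear signal intensity for 33297 probesets, which per the labels came from the PLIER method of Affymetrix Expression Console. Versions, and any normalization, were not given in the sources used here. The number of arrays limits the precision.

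Signals of 0 (240 values) were replaced by 0.01, the lowest signal above 0, and log2 was taken without further scaling. Groups came from the sample labels. A model of the 4 groups was fitted to all probesets and arrays with limma 3.58.1 (lmFit, eBayes) in R 4.3.3, and the steps were tested on simulated data. Figures were drawn with matplotlib 3.10.9. Names came from the platform annotation (1 symbol for 19460 probesets, several for 1754, none for 12083). Probesets of NDUFS5 and NDUFC2 carry several symbols and were left out, NDUFAF8 was not analysed here, and some items of the family, core subunits included, are not reported here.

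Members and lists were chosen with earlier results of these data known. Named genes were the 10 largest falls and up to 5 largest rises among members called in each FGF19 comparison, the core subunits, the assembly factors, NDUFA4 and NDUFA4L2, members called in another comparison and those with discordant probesets. Other members are named to complete their module, after their values were seen. As alternatives, arrays were normalized by quantiles or by cyclic loess, and the other settings were 16 added to each signal, leaving out the dimmest 20 percent of probesets, no moderation, a trended and robust prior, only the groups compared, the replicate number as a block, the mean of a gene's probesets, updated symbols, and each array left out.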

Additional observations from a re-analysis of the deposited data

How the results depend on the processing

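With 2 arrays in each group, small differences of single genes are the least certain values. The counts of genes called lower stayed within 1.5 times their value in every alternative that kept all 8 arrays or the groups compared. Quantile normalization left 1 gene called higher with FGF19 + TNFα relative to TNFα, and moved that comparison's median to −0.36, where the median of all probesets was 0.01, against 0.10 without it. Fitting only the groups compared left 0 genes higher with FGF19 and 1 with FGF19 + TNFα. Without moderation 1 gene was called with TNFα and 6 by the F test. Adding members by updated symbol moved the median with FGF19 + TNFα to −0.32. For near-zero genes the sign turned with the mean of all probesets in the presence of TNFα, to 0.00 for NDUFV2 and −0.085 for NDUFAF2. The cause was not tested. When 1 array was left out, the F test called 1 to 17 genes, FGF19 minus Mock 16 to 23 lower and 0 to 2 higher (median −0.49 to −0.42), FGF19 + TNFα minus TNFα 11 to 20 lower and 1 to 2 higher (median −0.38 to −0.31), and the TNFα comparisons and the interaction 0. NDUFS1 then ran from −0.144 to 0.022 and NDUFV2 from −0.128 to 0.009 with FGF19, and NDUFV2 from −0.063 to 0.049 with FGF19 + TNFα. Of the results of the 20 genes chosen by rule, in the 2 FGF19 comparisons, 388 kept direction and side of the threshold in the other alternatives, 9 lost and 1 gained their call, and with 1 array left out 285 kept both and 31 lost it. Deviations of arrays with the same replicate number correlated at r = −0.02 to 0.20 between groups over all probesets and −0.22 to 0.33 over the 41 genes, so the numbers were not taken to pair the arrays. With the replicate number as a block, 22 genes were lower with FGF19 (22 of them shared), 19 with FGF19 + TNFα (18 shared, NDUFA13 gained at adjusted p = 0.0199 and NDUFAF4 lost), and the F test called 15.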

Other observations

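Of 12 listed regulators of mitochondrial gene expression, 2 were lower (16.7%) and 3 higher (25%) with FGF19 relative to Mock by limma, beside 24.6% and 24.5% of bright probesets, with a median log2 difference of −0.02. In the presence of TNFα the counts were again 2 and 3, beside 22.2% and 23.8% of bright probesets, with a median of 0.14. GABPA, the DNA-binding subunit of GABP, had signals of 1933 and 1750 with FGF19, against 930 and 895 in Mock, and rose 2.02-fold (log2 difference 1.01, SE 0.09, adjusted p = 0.00275). Its partner GABPB1 rose 1.51-fold, and MYC 1.59-fold. In the presence of TNFα the rises were 1.98-fold for GABPA, 1.47-fold for GABPB1 and 1.24-fold for MYC. GABPA is also in a gene list that the study drew from these arrays, so that its call is not independent evidence. TFAM, which packages and transcribes mitochondrial DNA, was 1.32-fold lower, with signals of 712 and 767 with FGF19, against 986 and 972 in Mock, and the nuclear receptor gene ESRRA was 1.59-fold lower, and 2.12-fold lower in the presence of TNFα. NRF1 itself was not called, with signals of 248 and 260 with FGF19, against 292 and 296 in Mock (adjusted p = 0.102). The list was chosen with earlier results known, and no relation of these genes to the complex I genes was tested.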
